A study of Mus musculus with 10 samples.

Results

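The genes described here are those of insulin-like growth factor (IGF) signalling at the cell surface: the ligand Igf1, the receptors Igf1r, Igf2r and Insr, and the binding proteins Igfbp2 to Igfbp7. They were taken by symbol, and all 10 were found among the 23337 genes of the authors' deposited table. The table compares cardiomyocytes, the contracting cells of the heart, from 2 groups of Wildtype mice with 5 libraries each. One group received AAV9-cTNT-dnMKL1-GFP, a viral vector for a dominant-negative form of MKL1 (MRTF-A, a cofactor of serum response factor, SRF) and for green fluorescent protein; the control group received AAV9-cTNT-GFP, with no dnMKL1. Both vectors were given on postnatal day 1 at 5e+08 vector genomes per gram of body weight and drive expression from the cardiac troponin T promoter, so that the controls also carried virus and GFP. Cells were released with collagenase and sorted by fluorescence on postnatal day 14, and polyA RNA was sequenced. The question put to these genes is whether blocking MKL1 in cardiomyocytes altered their transcripts.

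IGF1 and IGF2 are secreted growth factors that act through IGF1R, a receptor tyrosine kinase closely related to the insulin receptor INSR. IGF2R, the cation-independent mannose 6-phosphate receptor, takes up IGF2 for breakdown and carries enzymes to lysosomes. The binding proteins hold IGFs in the blood and the matrix and can limit or prolong their action, and proteases release the ligand by cutting them. In the heart, signalling by these receptors through PI3K and AKT is known for growth of cardiomyocytes after birth and for the response to insulin.

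Of the 10 genes, 9 entered the authors' adjusted test and 2 passed it at an adjusted p-value under 0.05: Igfbp5 was higher and Insr was lower in dnMKL1 cardiomyocytes. Over all 14056 genes tested, 34.1% passed, 16.6% as higher and 17.4% as lower, so the members' share of 22.2% was no larger than that of other genes. The median log2 fold change of the 9 genes was 0.09, against 0.02 over all genes tested. The authors' deposited table holds no values per library, so group levels are given as means implied by the base mean (the average normalized count over the libraries) and the fold change. Overlap between single libraries of the groups could therefore not be read, and the error of each difference is the standard error (SE) deposited by the authors.

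The gene that rose, Igfbp5, lies beside Igfbp2 on chromosome 1, and their promoters are shown because the former was well detected and the latter almost absent in the same cells. In GENCODE on GRCm38, Igfbp5 spans chr1:72857932-72874884 on the minus strand and Igfbp2 spans chr1:72824503-72852474 on the plus strand, so that their 3′ ends face each other across 5457 bases. The sequences are the 250 bases before each start in RefSeq (GRCm38.p6), at chr1:72874866-72875115 on the minus strand for Igfbp5 and at chr1:72824230-72824479 on the plus strand for Igfbp2. Capitals mark the motifs found.
Igfbp5: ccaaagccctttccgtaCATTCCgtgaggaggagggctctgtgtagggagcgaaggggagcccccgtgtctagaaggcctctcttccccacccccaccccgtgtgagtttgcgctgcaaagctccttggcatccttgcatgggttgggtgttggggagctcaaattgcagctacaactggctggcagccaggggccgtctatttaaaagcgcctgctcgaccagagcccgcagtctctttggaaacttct
Igfbp2: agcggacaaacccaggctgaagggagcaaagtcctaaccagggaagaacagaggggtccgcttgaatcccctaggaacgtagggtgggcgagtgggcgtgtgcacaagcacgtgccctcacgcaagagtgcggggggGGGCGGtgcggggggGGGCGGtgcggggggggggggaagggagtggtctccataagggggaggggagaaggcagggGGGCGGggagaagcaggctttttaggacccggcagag
Motifs were searched on both strands, and no match overlapped another. CATTCC, the core letters of sites for TEAD factors, occurred once, in the Igfbp5 sequence, and in 12.6% of 32851 promoter windows of this length. GGGCGG, the letters of the GC box, occurred 3 times in the Igfbp2 sequence printed. It was in 4 of the 10 windows of the members, also those of Igf1r, Igf2r and Igfbp7, and in 32.7% of all windows. The CArG box, the element that SRF binds, was in 0 of the 10 windows of the members and in 1.47% of all windows. GTAAACA, the letters of FOXO sites, was also in 0 of these 10 windows and in 3.17% of all, while TATAAA was in the windows of Igfbp4 and Igfbp6 and in 12.4% of all. These windows covered 9 of the 10 genes, with 2 for Igfbp2 and no entry for Insr. A match describes letters in a window and does not show binding.

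Igfbp5 encodes a binding protein that associates with the extracellular matrix. Its implied mean was 576 normalized counts with GFP and 781 with dnMKL1. The authors' deposited table gave a log2 fold change of 0.44 (SE 0.10) and an adjusted p of 6.2e-05. This is 1.35-fold, with a 95% interval from 1.19-fold to 1.55-fold. In bulk RNA, a change in the number of cells of a type and a change in RNA per cell cannot be told apart. The fibroblast markers moved in the same direction: 5 of 12 were called higher and 0 lower, with 6 at an unadjusted p under 0.05. Under total-count scaling 8 of the 12 were called higher. Over all genes tested, 16.6% were higher in the authors' results and 40.4% under that scaling. The median log2 fold change of the 12 fibroblast markers was 0.47, and none of them was at 0. Their summed implied level was 5228 normalized counts with GFP and 8877 with dnMKL1. Fbln1 (748 to 1944) and Gsn (876 to 1951) made up most of that rise. The 7 fibroblast markers not called ranged from 0.02 for Mfap5 to 0.79 for Tcf21 on the log2 scale. Tcf21 had a base mean of only 8.40 and an SE of 0.52. Between these ends lay Pdgfra at 0.06, Dpt and Lum at 0.25, Dcn at 0.27 and Postn at 0.51. The part of such cells in the Igfbp5 result was not tested.

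The other binding proteins were not called. Igfbp3, the main carrier of IGFs in blood, had implied means of 47.0 normalized counts with GFP and 55.3 with dnMKL1. It was listed in the authors' deposited table at 0.23 (SE 0.23) on the log2 scale, an interval from 0.863-fold to 1.60-fold. Igfbp4, which inhibits IGF action until the protease PAPP-A cuts it, had implied means of 122 and 152 and a log2 fold change of 0.32 (SE 0.24) in the authors' deposited table, with an interval from 0.908-fold to 1.72-fold. Igfbp7, a secreted relative that binds IGFs weakly, had implied means of 349 and 421 and a deposited log2 fold change of 0.27 (SE 0.28). Its interval ran from 0.829-fold to 1.76-fold in the values of the authors' deposited table. The intervals of Igfbp3, Igfbp4 and Igfbp7 all hold the 1.35-fold of Igfbp5, so no difference in response from Igfbp5 was shown.

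Igfbp6, which prefers IGF2 over IGF1, had the lowest estimate and the widest interval among the 9. Its implied means were 9.0 normalized counts with GFP and 6.29 with dnMKL1. The authors' deposited table gave a log2 fold change of -0.52 (SE 0.49), an interval from 0.358-fold to 1.37-fold. Igfbp2, a binding protein of fetal and metabolic tissues, had no adjusted p-value. Its base mean of 0.340 in the authors' deposited table corresponds to 3 reads over the 10 libraries, 1 in a GFP library and 2 in a single dnMKL1 library. That is the only combination of up to 7 reads that gives this base mean with the recovered size factors, within a relative tolerance of 1e-07. At that depth no fold can be given.

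Among the receptors, Insr was called. Its implied mean was 1160 normalized counts with GFP and 932 with dnMKL1. On the log2 scale this was -0.32 (SE 0.12) in the authors' deposited table, at an adjusted p of 0.026. The fold was 0.804, with an interval from 0.684 to 0.944. This call depended on the scaling of the libraries: the summed implied means were lower in the dnMKL1 group, and scaling both groups to the same total adds 0.29 to every log2 fold change. Insr then stood at -0.03 (adjusted p = 0.88), while Igfbp5 stood at 0.73 (adjusted p = 2.8e-12). Under that scaling 3 of the 9 genes were higher (Igfbp3 at 0.52, Igfbp4 at 0.61 and Igfbp5) and 0 were lower, beside 40.4% of all genes tested as higher and 6.6% as lower. The most abundant genes weigh most in such totals. Myh6 had implied means of 768373 with GFP and 421599 with dnMKL1, while Mkl1 went from 84 to 74899. The shift was not split by gene, so these values do not show how much of it Myh6 or any other gene made up. With the authors' scaling the median log2 fold change over all genes tested was 0.02. Which scaling is nearer the truth was not tested.

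Igf1r, the main receptor for IGF1, had implied means of 237 normalized counts with GFP and 236 with dnMKL1. The authors' deposited table gave a log2 fold change of -0.0044 (SE 0.14), an interval from 0.827-fold to 1.20-fold. Igf2r had the largest implied means of the family, 3181 and 3389. For this gene the authors' deposited table gave 0.09 (SE 0.19) on the log2 scale, an interval from 0.824-fold to 1.38-fold. With total-count scaling, Igf1r stood at 0.28 and Igf2r at 0.38, and neither was called (adjusted p = 0.078 and 0.086). Whether Insr differed in response from Igf1r was not tested, since both folds come from the same libraries and only their summary is at hand.

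The ligand Igf1 had implied means of 235 normalized counts with GFP and 223 with dnMKL1. The authors' deposited table put it at -0.08 (SE 0.34) on the log2 scale. The interval, from -0.74 to 0.58 on that scale, holds both the rise of Igfbp5 and the fall of Insr. Igf2, the fetal ligand that is silenced in most tissues after birth, had a base mean of 165 and a log2 fold change of 0.15 (SE 0.32) in the authors' deposited table. The insulin genes Ins1 and Ins2 and the liver binding protein Igfbp1 were listed at 0, so no read was counted; a count of 0 allows an expected count of up to 3 reads over all libraries.

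**Figure D1:**
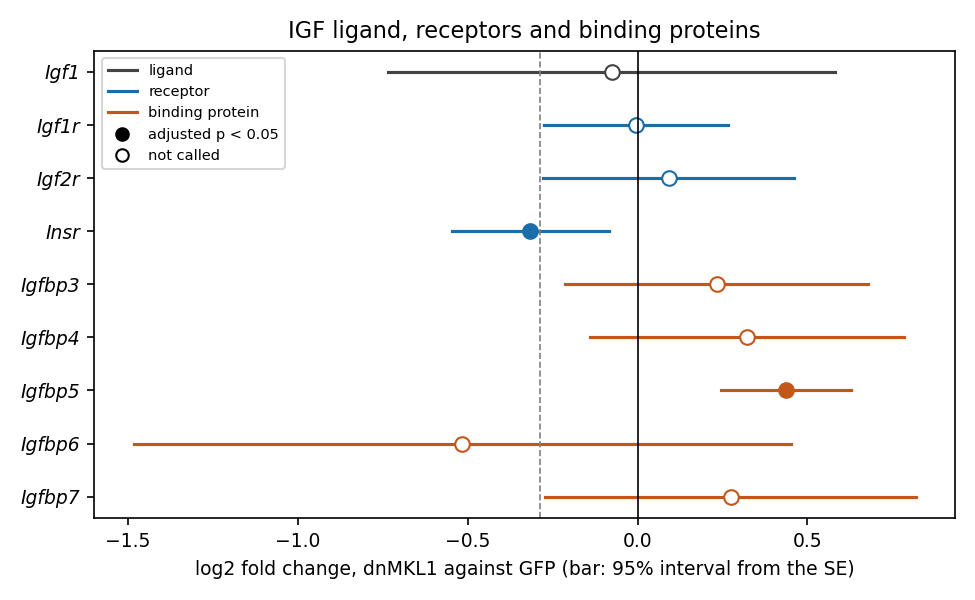
Log2 fold change of dnMKL1 against GFP (x axis) for the 9 genes tested, in the order ligand, receptors, binding proteins; bars are 95% intervals from the deposited SE and filled points have an adjusted p under 0.05. The intervals of Igfbp5 (0.25 to 0.63) and Insr (-0.55 to -0.08) exclude 0, the solid line, and that of Insr spans the dashed line, which marks where 0 would lie after total-count scaling.

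Levels of different genes were compared per kilobase of the longest GENCODE transcript, averaged over both groups. On this scale Igf2r was the most abundant at 370 normalized counts per kb, followed by Igfbp7 at 321, a step of 1.15 times. Igfbp5 at 113 and Insr at 112 came next, and Igfbp4 at 35.8 and Igf1 at 32.4 below them. Igfbp3 stood at 21.1 and Igf1r at 20.8, then Igfbp6 at 6.87 and Igfbp2 at 0.260. Insr transcripts were thus 5.39 times as abundant per kb as those of Igf1r, and Igf2r transcripts 17.8 times. The steps within the pairs Igf2r and Igfbp7, Igfbp5 and Insr, Igfbp4 and Igf1, and Igfbp3 and Igf1r were smaller than the fitted spread between libraries given below, so their order within each pair was not resolved at this length. The order also depended on the length used, since with the median transcript length only 3 of the 10 genes kept their place. Igf2r was then 34.5 times as abundant per kb as Igf1r, and Insr 4.73 times as abundant as Igfbp5, while Insr over Igf1r was 5.27.

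**Figure D2:**
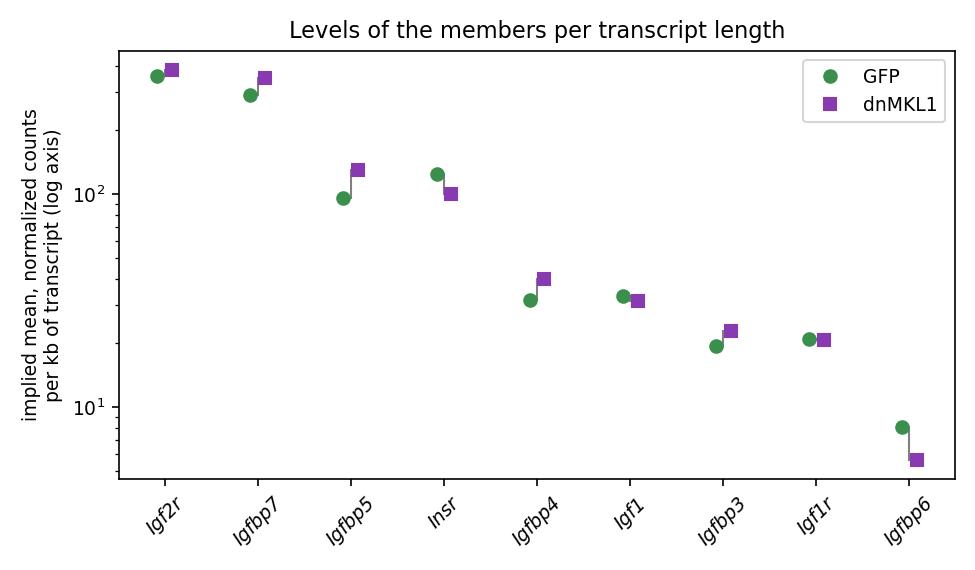
Implied group means in normalized counts per kb of the longest transcript (log y axis) for the 9 genes tested, ordered by level; circles are GFP and squares dnMKL1, joined for each gene, with no error bars because no values per library are given. Igf2r and Igfbp7 lie highest, and the distance between groups is largest on this axis for Igfbp6 and Igfbp5.

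The fitted spread between libraries of a group differed among the members. The spread between libraries was estimated as the coefficient of variation (CV) that gives the deposited SE under the count model. No values per library were at hand to observe the spread itself. How far the authors' fit shared information between genes is also not known, so these CVs may partly reflect genes of like level. The CV was lowest for Igfbp5, at 9.96%, followed by 12.6% for Insr and 13.6% for Igf1r. It was 20.5% for Igfbp3, 20.6% for Igf2r, 24.3% for Igfbp4, 30.0% for Igfbp7, 36.2% for Igf1 and 39.9% for Igfbp6. Counting error alone would have given Igf1 an SE of 0.06, and its deposited SE was 5.69 times as large. Igf2r had the most reads of the family, and its SE was 12.1 times that from counting.

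Igf1, Igfbp7 and Igf2r also stood apart from genes of like level. Their SEs were 2.63, 2.47 and 1.97 times the median SE of genes within 1.5-fold in base mean, and larger than those of 97.0%, 96.5% and 95.2% of such genes. Igfbp4 had a ratio of 1.54, while Igfbp3, Igfbp5 and Igfbp6 were at 0.955, 0.970 and 0.924. The median CV of the 12 endothelial markers was 34.3%, against 18.7% for the fibroblast markers and 13.0% for the 10 cardiomyocyte markers. It was 20.2% for the mural markers and 48.8% for the macrophage markers. Of these medians, the endothelial one lay nearest Igf1 and Igfbp7, and the cardiomyocyte one nearest Igfbp5 and Insr. Such values were not particular to a cell type: the mural markers Rgs5 and Kcnj8 had CVs of 33.5% and 31.7%. The cardiomyocyte markers were also far more abundant than Igfbp5 and Insr. The part of other cell types in this spread was not tested.

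**Figure D3:**
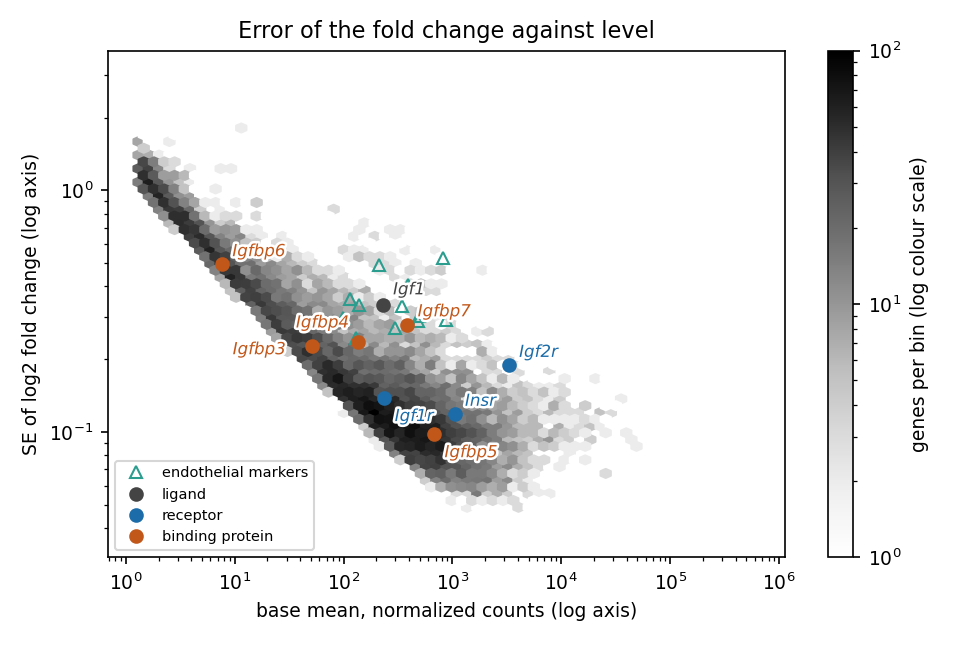
SE of the log2 fold change (y axis) against base mean in normalized counts (x axis), both on log axes, with the members as filled circles by role, endothelial markers as open triangles and all genes tested as grey bins. Igf1, Igfbp7 and Igf2r lie above the bulk of genes at their level, with Igf1 and Igfbp7 among the triangles, while Igfbp3, Igfbp5 and Igfbp6 lie within the bulk.

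The other genes of the pathway were followed in 7 lists with 81 genes tested, of which 15 were higher and 8 lower, a share of 28.4% beside the 34.1% of all genes. Counts of each list below stand beside 16.6% of all genes tested as higher and 17.4% as lower. The IGF and insulin kin had 2 testable genes, Igf2 and Igfbpl1, with 0 called and 0 at an unadjusted p under 0.05 in the authors' DESeq2 results. Igfbpl1, a binding protein relative, had a log2 fold change of 0.22 (SE 0.28) in the authors' deposited table.

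Genes that control the binding proteins outside the cell had 3 of 8 lower and 0 higher, although the list's median was 0.20. Igfals, the acid-labile subunit that joins IGF and IGFBP3 in a long-lived complex, fell to 0.355-fold, and the authors' deposited table gave -1.49 (SE 0.52, adjusted p = 0.014). Stc2, a secreted inhibitor of PAPP-A, fell to 0.593-fold, with -0.75 (SE 0.29, adjusted p = 0.029) in the authors' deposited table. Htra1, a serine protease that can cut binding proteins, was the most abundant of the list and fell to 0.795-fold, with -0.33 (SE 0.09, adjusted p = 0.0016) in the authors' deposited table. Total-count scaling turned the balance, with 3 of 8 higher and 1 lower, beside 40.4% of all genes as higher and 6.6% as lower. It ended the calls of Htra1 and Stc2, at -0.04 and -0.46. In the authors' results 5 genes of the list had an unadjusted p under 0.05. Among them Adamts1 and Mmp2 had log2 fold changes above 0, at 0.78 and 0.47, and were not called.

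The growth hormone axis, which drives Igf1 in liver, had 0 of 8 genes called in the authors' DESeq2 results and 1 at an unadjusted p under 0.05. Ghr, the growth hormone receptor, was the most abundant and had a log2 fold change of 0.02 (SE 0.10) in the authors' deposited table, an interval from 0.891-fold to 1.15-fold. The feedback inhibitors Socs1 and Socs2 had 1.45 (SE 0.63) and 0.46 (SE 0.44) there, and neither passed (adjusted p = 0.059 and 0.48 in the authors' deposited table). Under total-count scaling 4 of the 8 were called higher and 0 lower, among them Ghr at 0.31 and Socs1 at 1.74. That scaling called 40.4% of all genes tested higher.

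Proteins that bind the activated receptors had 3 of 12 higher and 0 lower, with a median of 0.10. Total-count scaling gave 7 higher and 0 lower, beside 40.4% of all genes tested as higher. Ptpn1, a phosphatase that switches the insulin receptor off, rose 1.36-fold, and the authors' deposited table gave 0.44 (SE 0.08, adjusted p = 2.1e-07). Grb10, an adaptor that restrains both receptors, rose 1.41-fold, with 0.49 (SE 0.15, adjusted p = 0.0059) in the authors' deposited table. Shc1, which links the receptors to RAS, rose 1.20-fold, with 0.26 (SE 0.08, adjusted p = 0.0064) in the authors' deposited table. Grb14, the most abundant of the list, had 0.08 (SE 0.09) there and was not called by the authors, but was under total-count scaling, at 0.37.

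Along PI3K, AKT and mTOR, 3 of 29 genes were higher and 5 lower, and the median was -0.03. Total-count scaling gave 9 higher and 0 lower, beside 40.4% of all genes tested as higher. Pik3r3 and Pik3r2, regulatory subunits of PI3K, rose 1.64-fold and 1.22-fold, and the authors' deposited table gave 0.71 (SE 0.16, adjusted p = 1.1e-04) and 0.29 (SE 0.08, adjusted p = 0.0019). Tsc1, a brake on mTOR complex 1, fell to 0.776-fold in the authors' deposited table (-0.37, SE 0.11, adjusted p = 0.0027), a call that total-count scaling ended at -0.08. Its partner Tsc2, the most abundant of the list, had -0.22 (SE 0.13) in the authors' deposited table and was not called, and stood at 0.07 under total-count scaling.

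In the RAS and MAPK branch, 3 of 11 genes were higher and 0 lower, with a median of 0.27. Total-count scaling gave 8 higher and 0 lower, beside 40.4% of all genes tested as higher. Mapk3, the kinase ERK1, rose 1.70-fold, and the authors' deposited table gave 0.76 (SE 0.14, adjusted p = 5.9e-07). Dusp6, a phosphatase induced by ERK that acts back on it, rose 1.90-fold, with 0.93 (SE 0.21, adjusted p = 9.3e-05) in the authors' deposited table. Nras rose 1.24-fold, with 0.31 (SE 0.11, adjusted p = 0.016) in the authors' deposited table.

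Cell-surface and matrix partners of the receptors and binding proteins had 6 of 11 higher and 0 lower and a median of 0.26. That was the largest share of calls among the 7 lists, beside 34.1% of all genes tested. The lists held from 2 to 29 genes tested, so shares of the small ones are coarse. Total-count scaling gave 8 higher and 0 lower, beside 40.4% of all genes tested as higher. Itgav and Itga5, integrin subunits that bind vitronectin and fibronectin, rose 1.97-fold and 1.28-fold, and the authors' deposited table gave 0.98 (SE 0.23, adjusted p = 1.2e-04) and 0.36 (SE 0.09, adjusted p = 5.6e-04). Sdc1, a heparan sulfate proteoglycan, rose 1.89-fold, with 0.92 (SE 0.23, adjusted p = 5.7e-04) in the authors' deposited table. Itgb1, the most abundant of the list, had a log2 fold change of -0.03 (SE 0.08) there and was not called, but was under total-count scaling, at 0.26. Also called higher were Lrp1 at 0.64, Tmem219 at 0.51 and M6pr at 0.17. This list differs from the members themselves in that some of its genes, the integrins among them, also serve adhesion. Its share was not tested against that of the members, and a link of the calls to adhesion was not tested.

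**Figure D4:**
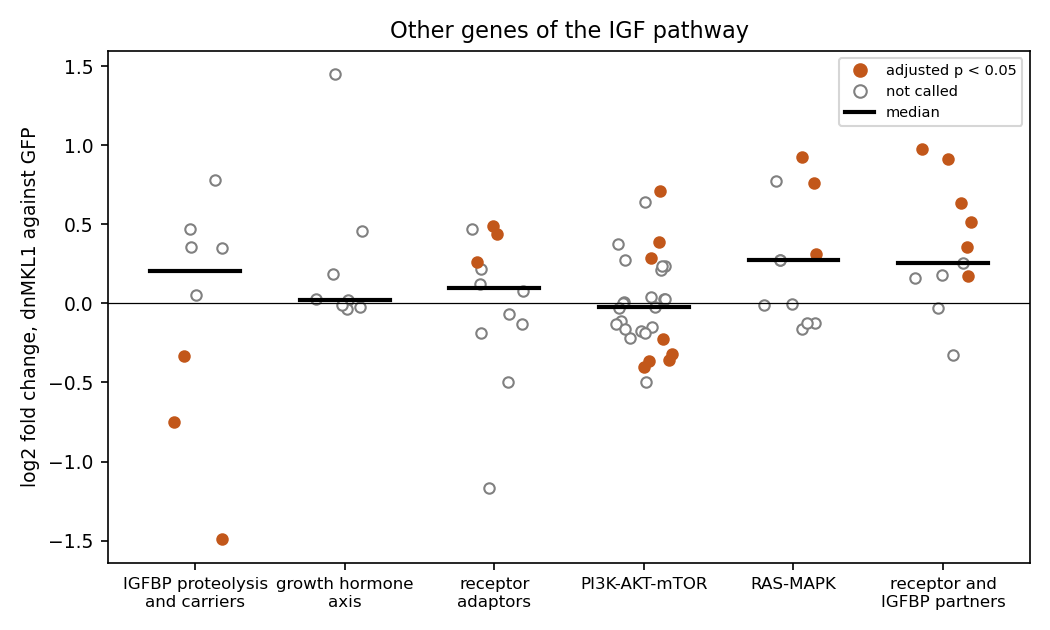
Log2 fold change of dnMKL1 against GFP (y axis) for the genes tested in 6 lists of the pathway (x axis), leaving out the list of 2 IGF and insulin kin; filled points have an adjusted p under 0.05 and black bars are list medians. The called genes of the adaptor, RAS-MAPK and partner lists all lie above 0, those of the proteolysis list all lie below it, and PI3K-AKT-mTOR has 3 above and 5 below.

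Checks of the whole comparison were as follows. Mkl1, whose reads include those from the vector, had a log2 fold change of 9.80 (SE 0.15) in the authors' deposited table, and the direction of every difference rests on reading this as higher with dnMKL1. Estimated library totals ran from 8803029 to 17123578 counts with GFP and from 8835136 to 17228615 with dnMKL1. All 10 cardiomyocyte markers were abundant, with base means from 10438 for Ryr2 to 594986 for Myh6, and 6 were called lower and 0 higher, with a median log2 fold change of -0.45. Endothelial markers had 0 of 12 called and 0 at an unadjusted p under 0.05 in the authors' DESeq2 results, with summed implied levels of 4373 with GFP and 4445 with dnMKL1. Mural markers had 3 higher and 1 lower of 9, a median log2 fold change of 0.30 and sums of 18254 and 15947. Acta2 (10454 to 4999) and Abcc9 (6332 to 7773) held most of both sums. The sum fell through Acta2, the call that was lower. Their base means of 7726 and 7052 were far above those of the other mural markers, from 60.9 for Tagln to 1260 for Cspg4. The sums therefore follow these genes and cannot stand for the number of mural cells. Which cells made their transcripts was not tested. The calls that were higher were Cspg4 (501 to 2019), Myh11 (99.2 to 164) and Tagln (46.0 to 75.9). The 5 not called ranged from 0.01 for Rgs5 to 0.45 for Notch3 on the log2 scale. Macrophage markers had 1 higher and 0 lower of 9, with sums of 175 and 154. None of the markers listed in the table was at 0. Of the 10 members, Igfbp7 shares 85 exon bases, 7.03% of its exon length, with Polr2b on the opposite strand, whose reads may be mixed with its own where strand was not used.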

How the data were processed

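RNA of sorted cardiomyocytes was sequenced in 5 GFP and 5 dnMKL1 libraries, made from 10 ng of RNA with 8 PCR cycles and 500 pg of cDNA, per the labels' protocols. Reads were aligned with STAR (2.5.3a) and counted with featureCounts (Subread 1.5.2) on mm10, per the submitters' processing notes, with CASAVA 1.8 also listed. The gene annotation and strand setting are not given in the sources used here. The single file holds the authors' comparison, with the columns of DESeq2 per the file headers, and no values per library. The deposited base mean is a signal in normalized counts. The fold change and SE were deposited as log2 values. The statistic is a score that the authors deposited, and it matched fold change over SE within 1.1e-05. The deposited p-value and its Benjamini-Hochberg adjustment were recomputed within 4.1e-07 and 1.4e-07.

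Computed here with Python 3.11.15, numpy 2.4.6, pandas 2.3.3 and scipy 1.17.1 were implied group means (base mean taken as the average of 2 equal groups), 95% normal intervals, and size factors from genes with 1 read in 1 library. Those factors ran from 0.660 to 1.58. Library totals are factor times summed implied means. The CV between libraries is the square root of the dispersion that gives the deposited SE under a negative binomial model, an estimate. Lengths, positions and exon overlaps came from GENCODE M21 on GRCm38. Calls use an adjusted p under 0.05 over all genes. The recomputation was tested on simulated data. Alternatives were thresholds of 0.01 and 0.1, adjustment over every p-value, a base mean of at least 100, total-count scaling, median centring and a minimum absolute log2 fold change of 0.5.

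The members and lists were chosen with earlier results of these data known. Named are all members and, per list, the called genes with the 3 smallest p-values (the 2 smallest where none is called) and the gene with the largest base mean. Of the genes this rule selects, 1 is not reported here and the others are. Marker lists were described by counts and sums, with names only where the text needs them. No gene is named for a like pattern, since likeness needs values per sample. The labels do not say whether libraries came from separate litters. Floors cover counting error only, as reads carry no molecular identifiers.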

Additional observations from a re-analysis of the deposited data

How the results depend on the processing

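No paired analysis was possible because the table holds no values per library, and for the same reason the fits without each library could not be made, so the weight of single libraries is unknown. The 2 calls among the members held with a threshold of 0.1, adjustment over every p-value, a base mean of at least 100 and median centring. A threshold of 0.01 left 1 of 9 members called (0 lower, without Insr) beside 25.2% of all genes, and requiring an absolute log2 fold change of 0.5 left 0 beside 19.5%, since both estimates are smaller. Total-count scaling gave 3 members higher and 0 lower, and reversed Igf1 to 0.21, Igf1r to 0.28, Tsc2 to 0.068 and Itgb1 to 0.26, by the shift itself. Of 81 pathway genes, 23 were called; a threshold of 0.01 left 15 (3 lower) beside the same 25.2%, a minimum fold change left 9 (7 higher, 2 lower) beside 19.5%, and total-count scaling gave 40 (39 higher, 1 lower) beside 47.0% of all genes. Of 52 marker genes tested, those called higher went from 9 to 14 under that scaling, beside 16.6% and 40.4% of all genes. With the median transcript length, 3 of 10 members kept their place in the order of levels, since short annotated transcripts lower that length.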

Other observations

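Some genes next to the family were picked after their values were seen. Irs1 and Irs2, the docking proteins that carry the signal from the insulin and IGF1 receptors to PI3K, had estimates in opposite directions: the authors' deposited table gave 0.47 (SE 0.26, adjusted p = 0.16) for Irs1 and -1.17 (SE 0.58, adjusted p = 0.11) for Irs2. Neither was called, and the intervals ran from 0.974-fold to 1.97-fold and from 0.202-fold to 0.983-fold. Airn, the antisense transcript that starts inside Igf2r and silences its paternal copy in mouse tissues, was higher: the authors' deposited table gave 0.69 (SE 0.19, adjusted p = 0.0016), or 1.62-fold, with implied means of 57.0 and 92.3 normalized counts. Igf2r itself was not called, and in GENCODE the exons of both genes share 0 bases.

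Both mannose 6-phosphate receptors can be set side by side. M6pr, the smaller, cation-dependent one, was called higher by the authors (log2 fold change 0.17, SE 0.07, adjusted p = 0.034 in the authors' deposited table), with an SE 0.676 times the median of genes of like level. The estimate for Igf2r, 0.09, was smaller, with an SE of 0.19, and a difference between them was not tested.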
